A study of Mus musculus with 2 samples.

Results

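The replication-dependent histone genes are the multicopy genes that supply H1, H2A, H2B, H3 and H4 for newly replicated chromatin. They were taken by name: every listed gene with a symbol H1-1 to H1-6 (H1f1 to H1f6 in RefSeq), or H2ac, H2bc, H3c or H4c with a number, or an older symbol starting Hist1h, Hist2h, Hist3h or Hist4h. This gave 65 of the 17215 listed genes: 6 of H1, 17 of H2A, 17 of H2B, 12 of H3 and 13 of H4. A further 5 genes of that naming scheme were not analysed here. By RefSeq assembly GRCm38.p6, 52 of the 65 lie on chromosome 13, 10 on chromosome 3, 2 on chromosome 11 and 1 on chromosome 6. No measured level entered this rule, although earlier results of these data were known when it was set.

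The cells were MC3T3-E1, a clonal pre-osteoblast line from newborn mouse calvaria, cultured with formaldehyde at 100 µM (FA_100) or at 300 µM (FA_300). The title of the series concerns inhibited osteoblast proliferation. There was 1 library per dose, with no exposure time in the labels, and cells without formaldehyde were not analysed here. Every difference is therefore one between 2 libraries, without a replicate check and without a p-value.

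Levels are FPKM, that is, mapped fragments scaled by transcript length and by library size. Steps between the low values put the library sizes near 18500000 fragments for 100 µM and 19400000 for 300 µM. For a transcript of 1 kb, 1 FPKM thus stood for 18.5 and 19.4 reads, and the median length used for this estimate over the histone genes was 493 bases. Read numbers below are estimates of this kind, and their exact 95% Poisson intervals cover counting error only. The osteoblast collagen gene Col1a1 stood at 2065 and 1714 FPKM and the lineage factor Runx2 at 7.99 and 3.60 FPKM at 100 and 300 µM, while Alpl was at 0.98 and 1.06 FPKM and Bglap was listed at 0 and at 0.49 FPKM. Markers of other cell types summed to 0.12 and 0.10 FPKM for 4 endothelial genes and 0.15 and 1.13 FPKM for 5 listed adipocyte genes. They summed to 22.6 and 28.7 FPKM for 6 macrophage and blood genes (Adgre1 at 0 in both) and to 86.9 and 17.5 FPKM for 6 osteocyte genes, of which Sost was at 0 in both and Pdpn held 84.5 and 16.6 FPKM. Their part in the results below was not tested.

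Replication-dependent histone genes are transcribed in S phase, when new DNA must be wrapped into nucleosomes, and most have no introns. Their mRNAs end in a conserved stem-loop, bound by the stem-loop binding protein SLBP, in place of a poly(A) tail. When DNA synthesis stops these mRNAs are rapidly degraded, so their level is widely used as a sign of S phase. Some of the genes also give polyadenylated transcripts, in differentiated cells above all. The labels do not state whether RNA was selected by its poly(A) tail, and how far such a step shaped these levels was not tested. For the same reason 17 other RNAs without a poly(A) tail had been chosen for comparison, but none of them was analysed here.

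The stem-loop is shown because it sets these transcripts apart from other mRNAs. It was searched as a letter pattern of the histone 3′ stem-loop, with alternative bases allowed at some positions, on the sense strand of GENCODE release M21 transcripts. It was found in 44 of the 65 genes (67.7%), against 13 of 16998 other listed coding genes (0.0765%). It was found in 4 of 6 H1, 11 of 17 H2A, 10 of 17 H2B, 8 of 12 H3 and 11 of 13 H4 genes. A missing match says only that the annotated transcript does not hold these letters. In the examples the stem-loop is in capitals and up to 5 flanking bases on each side are in lower case, in DNA letters.
H2ac23: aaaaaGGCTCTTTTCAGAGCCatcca
H2ac18: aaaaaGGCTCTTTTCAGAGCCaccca
H1f2: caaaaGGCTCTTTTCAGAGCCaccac
H3c3: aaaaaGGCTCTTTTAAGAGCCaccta
H4c3: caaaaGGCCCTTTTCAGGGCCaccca
H4c9: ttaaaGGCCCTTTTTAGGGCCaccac
The stem differed by class. All 11 matching H4 genes carried a stem of their own (7 as in H4c3, 2 as in H4c9 and 2 a further form), and none of these forms occurred in another class. The form of H2ac23, H2ac18 and H1f2 was shared by 10 H2A, 8 H2B, 5 H3 and 3 H1 genes. That of H3c3 was found in 3 H3, 2 H2B and 1 H1 gene.

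Promoters are shown because their motifs divide the classes that the results compare. RefSeq promoter windows (250 bases before to 50 after the start) were found for 60 of the 65 genes. The letters CCAAT, on either strand, were in the window of every H1, H2A, H2B and H3 gene matched (6, 17, 15 and 10 genes), but in 3 of 12 H4 genes, against 41.1% of the 27025 genes of the promoter table. The octamer ATTTGCAT on either strand, known as the binding site of the factor OCT1 in H2B promoters, was in 6 of 15 H2B and 6 of 17 H2A windows and in none of H1, H3 or H4, against 1.97% of all. The letters TATAAA on the sense strand were in 28 of 60 windows (46.7%), against 9.77% of all. These are matches of letters, not evidence of binding. The 120 bases before the start are given below for 4 genes that return in the results, with matches to these 3 motifs in capitals (ATTGG is CCAAT read from the other strand).
H3c3, GRCm38.p6 chr13:23745522-23745641, minus strand: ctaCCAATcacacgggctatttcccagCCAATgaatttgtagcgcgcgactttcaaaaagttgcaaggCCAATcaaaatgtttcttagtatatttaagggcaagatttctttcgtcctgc
H2bc23, GRCm38.p6 chr13:21810200-21810319, minus strand: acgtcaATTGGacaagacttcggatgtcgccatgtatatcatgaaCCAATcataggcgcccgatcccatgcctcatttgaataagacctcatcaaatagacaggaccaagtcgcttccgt
H2bc8, GRCm38.p6 chr13:23571280-23571399, plus strand: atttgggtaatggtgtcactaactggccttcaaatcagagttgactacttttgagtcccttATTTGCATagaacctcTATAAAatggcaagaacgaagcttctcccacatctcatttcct
H4c9, GRCm38.p6 chr13:22041363-22041482, minus strand: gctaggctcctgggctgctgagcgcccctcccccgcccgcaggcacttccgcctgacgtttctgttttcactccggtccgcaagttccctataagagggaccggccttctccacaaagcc
H3c3 holds 3 copies of CCAAT, H2bc8 holds the octamer and TATAAA, and the stretch of H4c9 holds none of the 3 motifs. The full window of H4c9 does hold TATAAA, outside the bases printed. H2bc23 is shown because its 120 bases are identical at 120 of 120 positions to those of H4bc24, an H2B gene despite its RefSeq symbol (older name Hist1h2br). Each of them lies head to head with an H2A gene, H2ac23 or H2ac24.

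Histone mRNAs as a whole were at a low level and higher at 300 µM. The 65 genes summed to 149.7 FPKM at 100 µM, or 0.0281% of all FPKM, and to 353 FPKM at 300 µM, or 0.0511%. The ratio of the sums was 2.36, with a counting interval of 2.22 to 2.50. An estimated 1579 reads (1502 to 1659) stood behind the first sum and 3796 (3676 to 3919) behind the second. Of the 65 genes, 47 had a higher value at 300 µM, 9 a lower one and 9 were listed at 0 in both libraries. Over all 17215 listed genes, 5836 were higher, 8790 lower and 2306 at 0 in both. The median level was 0.30 FPKM at 100 µM and 0.82 FPKM at 300 µM. With all values rescaled to equal sums in both libraries the ratio was 1.82, and after centring on the median gene it was 2.90.

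Per gene, the difference was taken as log2((FPKM at 300 µM + 1)/(FPKM at 100 µM + 1)), a scale that understates the change of low genes, and 2-fold on it was the size counted. Of the 65 genes 14 (21.5%) reached 2-fold upwards at 300 µM and 1 downwards. Over all 17215 listed genes 3.65% reached it upwards and 18.0% downwards. The members' median was 0.46, against -0.01 over all listed genes. Among the 23 members averaging 1 FPKM or more, 10 were higher and 1 lower with a median of 0.86. Of the 10123 genes at that level 6.09% were higher and 29.8% lower, with a median of -0.30. Some of the 23 members reached that level only through their value at 300 µM. Rescaled to equal sums, 5 of the 65 members were higher in place of 14, and with centring on the median gene 20 were. With equal sums the values of H2ac13, H2ac15 and H2aw turned from slightly above to slightly below 0. With a pseudocount of 0.1 FPKM 35 were higher and 7 lower. The all-gene shares above hold for the values as deposited with a pseudocount of 1 FPKM, and are not a measure for the counts under these other settings.

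Transcript length moved with the ratio across all genes, and histone transcripts are short. At a mean level of 1 FPKM or more the median log2 ratio was 0.71 for 528 genes with a transcript of at most 1 kb, 0.28 for 2029 genes above 1 and up to 2 kb, -0.31 for 4170 genes up to 4 kb and -0.87 for 3366 longer ones. Of the 528 short genes 18.0% were up by 2-fold or more and 3.98% down, beside 43.5% and 4.35% of the 23 histone genes. The histone median of 0.86 lay near the 0.71 of the short genes, a set that includes histone genes, but the share up by 2-fold was larger. That share is raised by the filter itself. Genes such as H3c1 (0.41 and 2.87 FPKM) and H3c11 (0.88 and 3.85 FPKM) passed it only through their value at 300 µM. The 43.5% and 18.0% are therefore not a like comparison. The levels also differed. The 23 histone genes had medians of 1.56 and 2.87 FPKM at 100 and 300 µM, against 44.1 and 71.8 FPKM for the short genes. The pseudocount therefore understates the histone ratios more. Leaving out members and genes with symbols of ribosomal and respiratory proteins, 390 short genes had a median of 0.63. Coding genes without introns outside the histones went the other way: of 141 with a median transcript length of 2524 bases, 4.26% were higher and 59.6% lower, with a median of -1.37. The part of length in the histone result was not tested.

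**Figure D1:**
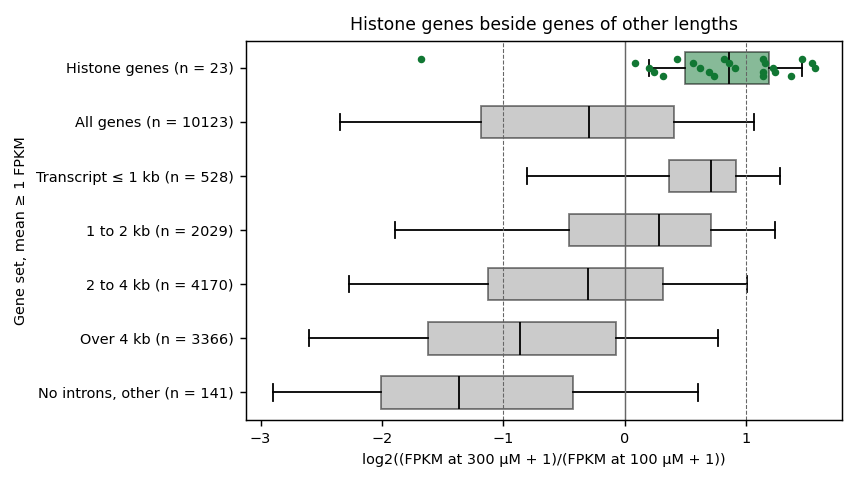
Log2 ratio of FPKM + 1 at 300 µM over 100 µM (x axis) for genes averaging 1 FPKM or more in the sets named on the y axis; boxes span the quartiles with the median as a line, whiskers the 5th to 95th percentiles, green points are single histone genes and dashed lines mark 2-fold. The histone median of 0.86 sits beside the 0.71 of transcripts up to 1 kb, and far from the -1.37 of other intronless genes.

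By class, every summed level was higher at 300 µM. H4 had the highest ratio with all copies included, from 7.64 to 25.6 FPKM (3.35, counting interval 2.49 to 4.57), although H3 stood above it at 3.38 against 3.15 without genes that share most of their words. H1 went from 4.42 to 11.4 FPKM (2.57, 1.90 to 3.52) and H3 from 9.95 to 25.4 FPKM (2.55, 2.02 to 3.25). H2A, which held 77.5% of the histone FPKM at 100 µM and 76.4% at 300 µM, went from 116 to 269.9 FPKM (2.33, 2.17 to 2.50). H2B had the lowest ratio, from 11.7 to 20.8 FPKM (1.78, 1.52 to 2.08). A nucleosome takes its 4 core histones in equal numbers, whereas the FPKM sum of H2A exceeded that of each other class in both libraries. The intervals of H1, H2A, H3 and H4 all overlapped, those of H2A and H4 only barely. That of H2B lay below those of H2A and H4 and overlapped those of H1 and H3. As these intervals hold no variation between cultures, the order of the classes is a description of 2 libraries. In bulk RNA, more cells in S phase and more histone mRNA per cell cannot be told apart.

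**Figure D2:**
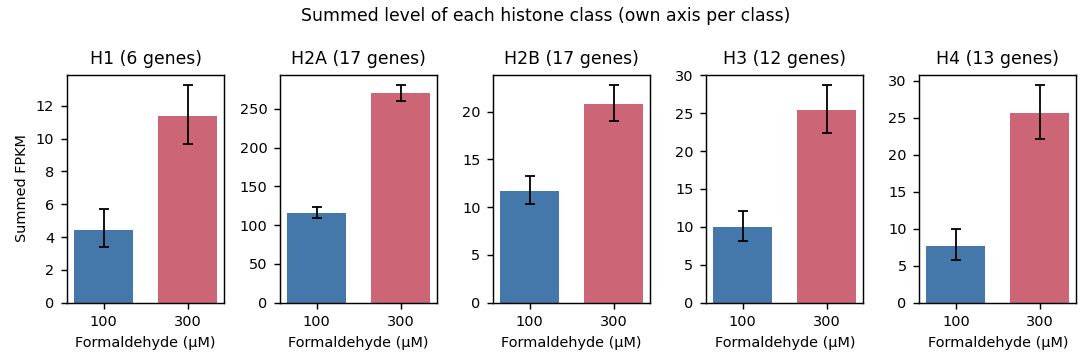
Summed FPKM (y axis, its own scale for each class, from 0) of the genes of each histone class at 100 and 300 µM formaldehyde (x axis), 1 library per dose; error bars are exact 95% Poisson intervals of the estimated reads. Every class is higher at 300 µM, from a ratio of 1.78 in H2B to 3.35 in H4.

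Many histone genes are near-identical copies, so the division of reads among them is uncertain. Of the 65 transcripts, 32 shared over 50% of their 50-base words with another gene, and 4 shared none. The median share was 1.13% in H1, 39.5% in H4, 49.7% in H2B, 62.0% in H3 and 78.9% in H2A. A sum over a class depends less on this division than single genes do, but copies differ in length and some share words with genes outside the class. Without the 32 genes the ratio was 3.38 for H3, 3.15 for H4, 2.57 for H1, 2.01 for H2A and 1.49 for H2B, so that H3 stood above H4. Depth limits single genes as well: 12 members had at least 20 estimated reads in both libraries, 30 had over 3 in both and 15 had 3 or fewer in both.

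**Figure D3:**
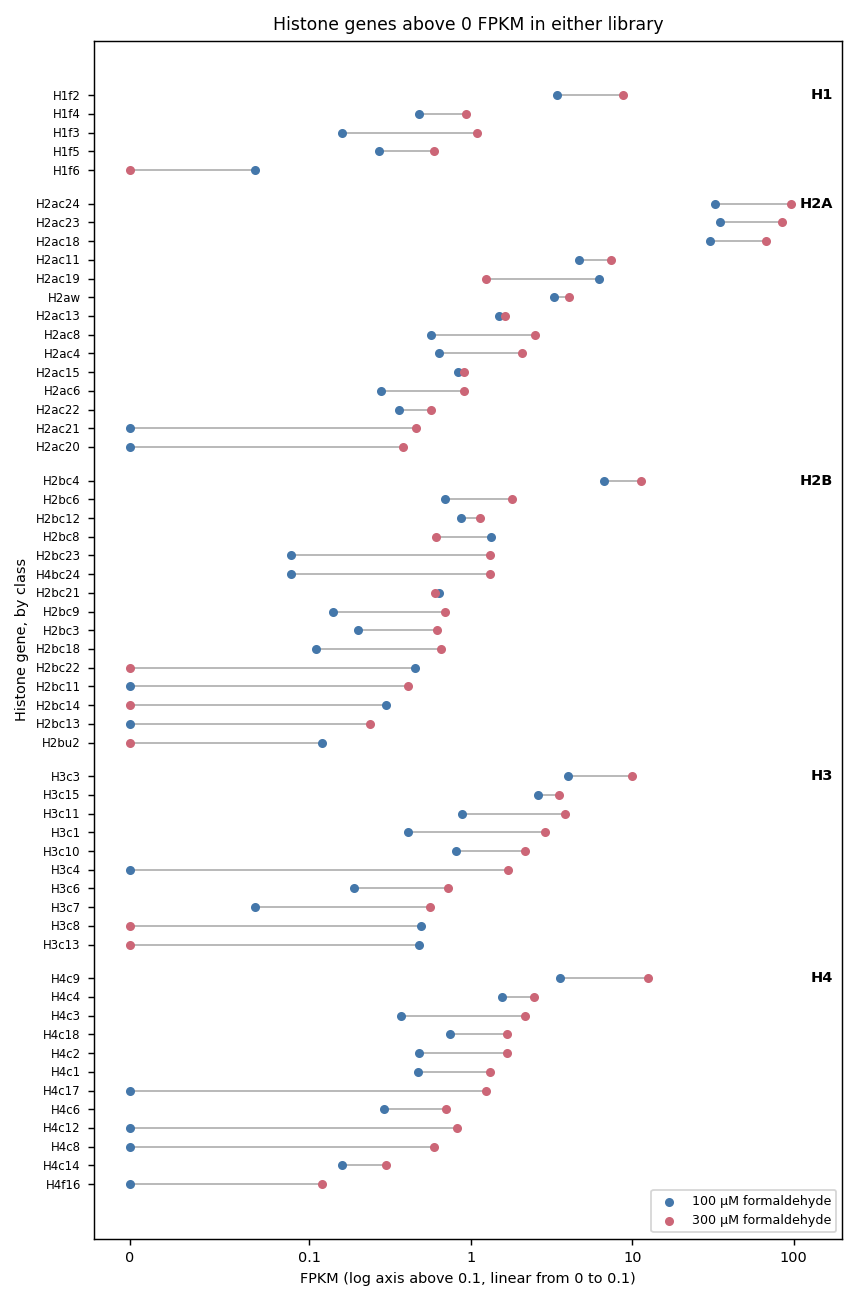
FPKM (x axis, logarithmic above 0.1 and linear below) of each histone gene above 0 in either library (y axis, by class), with 100 µM in blue and 300 µM in red, 1 library per dose. Red points lie to the right of blue ones for 47 genes, and H2ac24, H2ac23 and H2ac18 stand above all others in both libraries.

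H2A genes encode the histone that pairs with H2B at the outer part of the nucleosome. Their level was that of a few genes. H2ac24 was at 32.4 and 96.1 FPKM (log2 ratio 1.54; an estimated 271 and 843 reads). H2ac23 was at 35.2 and 84.3 FPKM (1.24; 360 and 903 reads). These neighbours share 93.1% and 93.5% of their words, and their sum went from 67.6 to 180.3 FPKM, a ratio of 2.67 with a counting interval of 2.44 to 2.93. The pair made up 45.1% of all replication-dependent histone FPKM at 100 µM and 51.1% at 300 µM.

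H2ac18 and H2ac19 on chromosome 3 moved in opposite ways, and 89.4% and 100.0% of their words are shared with another annotated gene, Gm20634. H2ac18 was at 30.1 and 67.5 FPKM (1.14). H2ac19, the only member at least 2-fold lower, was at 6.19 and 1.25 FPKM (-1.68; 68.3 and 14.5 reads). The sum of both was 36.3 and 68.7 FPKM, a ratio of 1.89 with an interval of 1.67 to 2.15. Whether H2ac19 itself was lower cannot be told from values divided among such overlapping annotations. Without these 4 genes, the other 61 members still summed to 45.8 and 104 FPKM, a ratio of 2.27.

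The remaining H2A genes were lower and less different, with 12.1 and 20.9 FPKM summed over 13 genes (1.72, interval 1.36 to 2.19). H2ac8 was at 0.57 and 2.50 FPKM (1.16; 5.89 and 27.1 reads) and H2ac4 at 0.64 and 2.07 FPKM (0.90). H2ac11 was at 4.68 and 7.38 FPKM (0.56), H2aw at 3.28 and 4.05 FPKM (0.24) and H2ac13 at 1.49 and 1.63 FPKM (0.08). All 5 were higher at 300 µM in the values as deposited, although H2aw and H2ac13 turned lower with equal sums. Of the other 8 H2A genes, 5 lay below 1 FPKM in both libraries and 3, H2ac7, H2ac10 and H2ac12, were listed at 0 in both.

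H2B genes gave the smallest difference and the most members going down, with 10 of 17 higher, 5 lower and 2 at 0 in both libraries. H2bc4 held 57.0% and 54.8% of the class, at 6.67 and 11.4 FPKM (0.69; 143 and 256 reads). H2bc6 was at 0.69 and 1.81 FPKM (0.73; 32.0 and 88.1 reads) and H2bc12 at 0.87 and 1.14 FPKM. H2bc8 was lower at 300 µM, at 1.33 and 0.61 FPKM (-0.53), but only 11.4 and 5.5 reads stood behind it. H2bc21, a gene with a long transcript that shares no words with another gene, was at 0.64 and 0.60 FPKM on 31.6 and 31.1 reads. Between the libraries these 2 genes thus differed by a few reads.

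The copies H2bc23 and H4bc24, whose promoters are printed above as 1 sequence, were listed at the same values. Each was at 0.09 and 1.31 FPKM (1.08). Their sum was 0.18 and 2.62 FPKM, a ratio of 14.6 whose interval of 5.42 to 55.0 reflects only 4.18 reads at 100 µM. They share 97.3% and 88.7% of their words, and how reads were split between them is not known. Both have an annotated spliced transcript, as do H2bc4, H2bc6 and H2bc22 among the 65.

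H3 genes encode the core histone whose tail carries many chromatin marks. In this class 8 of 12 were higher, 2 were lower and 2 at 0 in both, with 4 at least 2-fold higher. H3c3 led at 3.99 and 9.99 FPKM (1.14; 35.5 and 93.1 reads). H3c11 was at 0.88 and 3.85 FPKM (1.37; 7.87 and 36.1 reads) and H3c1 at 0.41 and 2.87 FPKM (1.46; 3.81 and 28.0 reads). H3c4 was listed at 0 and at 1.70 FPKM (16.6 reads), so no fold is given. These 4 genes were the H3 members at least 2-fold higher on the log2 scale used. H3c10 was at 0.81 and 2.18 FPKM (0.81), and H3c15 on chromosome 3 at 2.63 and 3.52 FPKM (0.32). H3c8 and H3c13 went from 0.49 and 0.48 FPKM to 0, and H3c6 and H3c7 stayed below 1 FPKM.

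H4 genes, which encode the same protein from many copies, had no member lower at 300 µM: 12 of 13 were higher and 1 was at 0 in both. H4c9 held 46.6% of the class at 100 µM and 48.9% at 300 µM. It was at 3.56 and 12.5 FPKM, on 26.6 and 97.9 reads, and its log2 ratio of 1.57 was the largest of all 65 members. H4c3 was at 0.37 and 2.18 FPKM (1.21; 2.57 and 15.9 reads). H4c17 was listed at 0 and at 1.25 FPKM (9.83 reads). These 3 were at least 2-fold higher. Below that size, H4c2 was at 0.48 and 1.68 FPKM (0.86), H4c1 at 0.47 and 1.31 FPKM (0.65), H4c18 at 0.75 and 1.68 FPKM (0.61) and H4c4 at 1.56 and 2.45 FPKM (0.43). The class median was 0.65, beside 0.54 in H3, 0.46 in H2A, 0.35 in H1 and 0.31 in H2B. The H4 genes are also the class with a stem of their own and with CCAAT in few promoters.

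H1 genes encode the linker histones that bind where DNA enters and leaves the nucleosome, and they share few words with each other. H1f2 held 77.8% and 77.0% of the class, at 3.44 and 8.75 FPKM (1.13; 46.2 and 123 reads). H1f3 was at 0.16 and 1.10 FPKM (0.86). H1f4 and H1f5 were higher at 300 µM but below 1 FPKM in both libraries. H1f1 was listed at 0 in both libraries, and the testis linker histone gene H1f6 was at 0.07 and 0 FPKM.

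Most of the genes at least 2-fold higher lie on chromosome 13, as most members do. Of 52 members on chromosome 13, 13 were at least 2-fold higher and none lower, with a median of 0.55. Of 10 on chromosome 3, 1 was higher and 1 lower, with a median of 0.24, and of the 2 on chromosome 11 and the 1 on chromosome 6 none passed 2-fold. Of 21 genes whose stem-loop lay within 60 bases of the annotated transcript end, 5 were higher (median 0.50). Of 23 whose annotated transcript ran on farther, 6 were higher (0.53), and of 21 without a match 3 were higher (0.31). A transcript annotated past its stem-loop may be a polyadenylated form, but which form was sequenced cannot be read from a value per gene.

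H2A and H2B genes often lie head to head and share the DNA between their starts. Among the genes with a promoter window there were 9 such pairs, with starts 164 to 268 bases apart. H2bc4, the highest H2B gene, and H2bc21 had no window, so no pair with them was counted. Partners often had unequal levels, though H2ac7 and H2bc7 were listed at 0 in both libraries. H2ac23 at 35.2 and 84.3 FPKM lay beside H2bc23 at 0.09 and 1.31 FPKM, and H2ac11 at 4.68 and 7.38 FPKM beside H2bc11 at 0 and 0.41 FPKM. H2ac12 was listed at 0 in both libraries, while its partner H2bc12 was at 0.87 and 1.14 FPKM. H2ac8 and H2bc8, whose starts are 180 bases apart and whose shared DNA includes the octamer printed above, differed in direction. Of the pairs counted, the H2A gene was above its partner in 5 of 9 at 100 µM and in 7 at 300 µM. Both partners were higher at 300 µM in 4.

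Replication-independent variants, histone mRNAs that are mostly polyadenylated and not limited to S phase, were far more abundant in sum, and their sums differed less. Of 10 averaging 1 FPKM or more, none reached 2-fold in either direction, and their median was 0.27. H3f3b and H3f3a, which both encode H3.3, were at 565 and 681 FPKM (0.27) and at 379.9 and 362 FPKM (-0.07). H2az1, which encodes H2A.Z, was at 279 and 399 FPKM (0.51). Those with the highest ratios are named after their values were seen. They were H2az2 at 29.3 and 58.8 FPKM (0.98), Cenpa at 27.8 and 52.0 FPKM (0.88) and H1f10 at 51.5 and 95.3 FPKM (0.88). These log2 ratios lay above the median of 0.86 of the 23 replication-dependent genes at that level. Those 23 genes had lower median levels, 1.56 and 2.87 FPKM, so the pseudocount lowered their ratios more. H2ax, whose product is phosphorylated at DNA breaks, was lower, at 59.99 and 30.1 FPKM (-0.97). H2ax is a mixed case, as it gives both stem-loop and polyadenylated mRNA.

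The share of replication-dependent genes was higher at 300 µM in H1, H2A and H3, the classes with listed variants. It was 4.64% of H1 FPKM at 100 µM and 8.07% at 300 µM, 19.4% and 30.2% of H2A, and 1.01% and 2.27% of H3. The summed H1 variants went from 90.9 to 129.5 FPKM, a ratio of 1.43, beside 2.57 for the replication-dependent H1 genes. The summed variants of H2A went from 482.7 to 624 FPKM, a ratio of 1.29, beside 2.33 for the replication-dependent H2A genes. The summed H3 variants went from 972 to 1095 FPKM, a ratio of 1.13, beside 2.55. Both sums of a class are scaled alike, so this comparison within a library does not depend on the scaling of the libraries. The annotated transcripts had a median length of 1732 bases for the variants at that level and of 572 bases for the replication-dependent genes.

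Most genes that make and process histone mRNA had lower values at 300 µM. Of 21 genes for transcription, 3′ processing and decay at that level, none was at least 2-fold higher and 7 (33.3%) were lower, close to the 29.8% of all genes at that level. The median was -0.67, against -0.30. Npat, the coactivator that switches on all histone classes at the start of S phase, was at 7.43 and 0.40 FPKM (-2.59). Casp8ap2, which encodes the processing factor FLASH, was at 9.22 and 0.61 FPKM (-2.67). Both have long transcripts (6062 and 6799 bases), and the list had a median length of 4116 bases. The median was -0.31 for all genes of 2 to 4 kb and -0.87 for longer ones, and the part of length in the list's values was not tested.

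The U7 genes and Slbp were below 0, by differing amounts. Lsm10, a subunit of the U7 particle that cleaves histone pre-mRNA, has a transcript of 943 bases and was at 11.3 and 3.36 FPKM (-1.50). Its partner Lsm11 was at 3.60 and 2.01 FPKM (-0.61) and the U7-associated Zfp473 at 0.20 and 0.04 FPKM. Slbp itself was at 73.9 and 47.7 FPKM (-0.62), and remained the most abundant gene of the list in both libraries. Hinfp, a factor that binds H4 promoters, was at 5.97 and 1.96 FPKM (-1.24). Ccne2, which encodes the cyclin E2 that activates CDK2 for S-phase entry, was at 14.8 and 2.26 FPKM (-2.27).

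The decay factors in the list were lower at 300 µM as well. Upf1, the helicase that starts histone mRNA decay after replication stops, was at 35.1 and 7.21 FPKM (-2.14), and Tut4, which adds uridines to RNA ends, at 3.97 and 0.76 FPKM (-1.50). Only 3 genes were above 0, and they are named after their values were seen: Cpsf3, the endonuclease of 3′ cleavage, at 19.2 and 28.3 FPKM (0.54), Sympk at 32.7 and 41.8 FPKM (0.35) and Cdk2 at 30.8 and 32.9 FPKM (0.09).

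Histone chaperones carry new histones to DNA. Of 26 genes 2 (7.69%) passed 2-fold upwards and 9 (34.6%) downwards, close to the 6.09% and 29.8% of all genes at that level, with a median of -0.21. Chaf1b, a subunit of the replication-coupled assembly factor CAF-1, was at 20.7 and 47.4 FPKM (1.16), whereas its largest subunit gene Chaf1a was at 18.8 and 10.5 FPKM (-0.78). Tonsl, a reader of new histones at replication forks, was at 2.48 and 6.44 FPKM (1.10). The ASF1 genes also differed, with Asf1b at 20.2 and 25.6 FPKM (0.33) and Asf1a at 17.5 and 5.00 FPKM (-1.62).

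The other lower chaperone genes serve replication-independent deposition in part. Ubn1 was at 14.0 and 1.92 FPKM (-2.36) and Ubn2 at 3.24 and 0.52 FPKM (-1.48), both partners of HIRA. Daxx was at 22.4 and 4.86 FPKM (-2.00) and Atrx at 6.71 and 2.21 FPKM (-1.26), which together deposit H3.3. Hjurp, the CENP-A chaperone, was at 21.7 and 6.01 FPKM (-1.69). Supt16 and Supt6, which act with RNA polymerase II, were at 24.7 and 7.28 FPKM (-1.63) and at 46.2 and 18.8 FPKM (-1.25), and Spty2d1 was at 15.8 and 1.86 FPKM (-2.55). Other genes of the list, named after their values were seen, differed less. Hira was at 6.65 and 5.76 FPKM (-0.18), Cabin1 at 5.08 and 5.37 FPKM (0.07) and Ssrp1 at 73.7 and 96.0 FPKM (0.38). Transcripts of the lower genes named here ran from 2673 bases (Daxx) to 14644 (Ubn2), and the part of length was not tested.

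**Figure D4:**
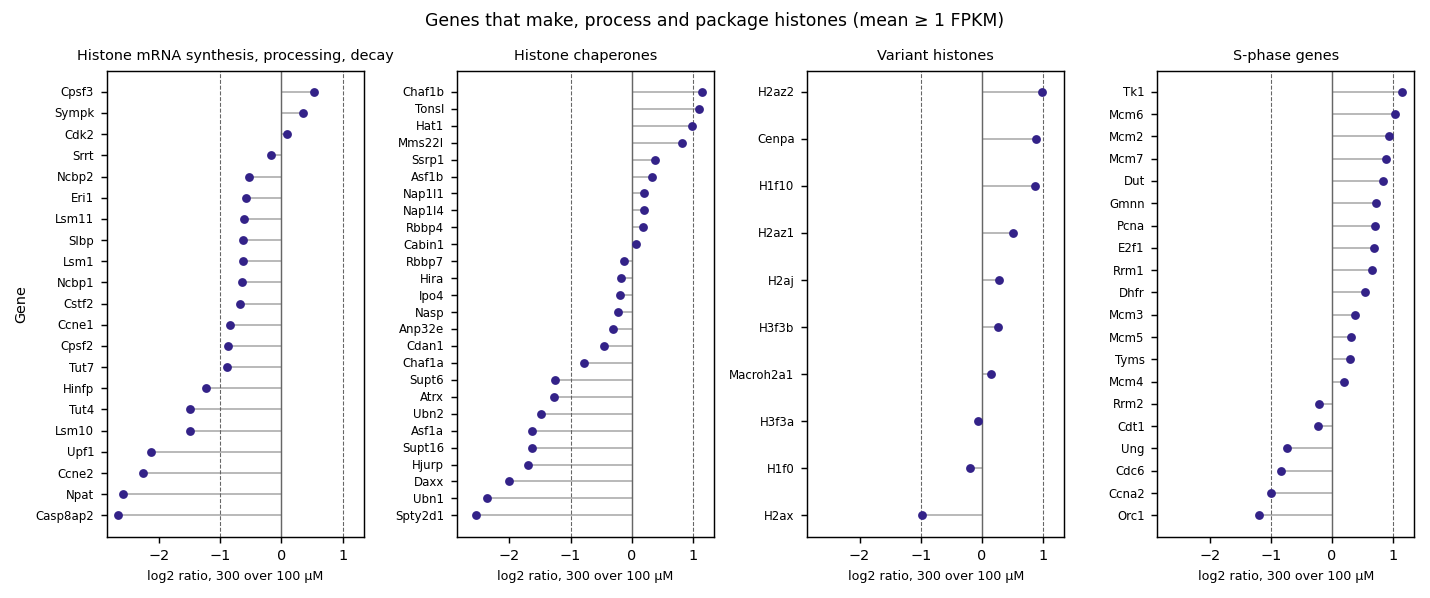
Log2 ratio of FPKM + 1 at 300 over 100 µM (x axis) of each gene averaging 1 FPKM or more in 4 lists (panels), 1 library per dose, with 2-fold marked by dashed lines. The genes for histone mRNA synthesis, processing and decay lie mostly below 0, with a median of -0.67, while S-phase genes lie mostly above it, with a median of 0.46.

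S-phase genes gave a further view of the same cells. Of 20, 14 were above 0 with a median of 0.46, beside 4089 of all 10123 genes at that level, with a median of -0.30. At least 2-fold higher were 2 of the 20 (10.0%) and lower 2 (10.0%), beside 6.09% and 29.8% of all genes at that level. Tk1, the thymidine kinase of DNA precursor synthesis, was at 40.0 and 89.7 FPKM (1.14), and Mcm6, a subunit of the replicative helicase, at 46.7 and 96.7 FPKM (1.03). Orc1, which marks replication origins, was at 4.57 and 1.43 FPKM (-1.20), and the cyclin gene Ccna2 at 45.5 and 22.2 FPKM (-1.01). With equal sums none of the 20 was higher and 4 were lower, and with centring on the median gene 6 were higher and none lower. The list had a median length of 2990 bases.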

How the data were processed

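RNA of 1 library per formaldehyde dose was sequenced, with total RNA as the labelled molecule. The values are FPKM per gene, named so per the file headers and deposited by the authors. The submitters' processing notes name Bowtie2 and RSEM without versions. The build, the annotation and any RNA selection were not stated there. NCBI gene IDs were matched to symbols through RefSeq (17179 of 17215 genes) and GENCODE release M21 (7), and 29 stayed unnamed. Lengths, shared words, stem-loops and introns came from GENCODE transcripts, found for 17127 genes. The read estimates were an exception: histone genes without an annotated spliced transcript took their RefSeq length there. Over the 65 genes the median was 493 bases for the read estimates and 572 bases for GENCODE transcripts.

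Ratios used a pseudocount of 1 FPKM and no test, because each dose had 1 library. Reads were estimated from the FPKM of low genes, which fall on steps of 1 read: 65.0% of 100 low values at 100 µM and 65.3% of 72 at 300 µM lay within 0.12 reads of a whole number, against a median of 16.8% and 14.9% over other step sizes. The step size was found with GENCODE lengths. Fragments shared among copies and the differing length sources make these only estimates, and exact Poisson intervals at the 95% level cover counting error only.

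The members and gene lists were chosen with earlier results of these data known. Members at 1 FPKM or more in either library were named with both values. Of the other lists, genes beyond 2-fold with a mean of at least 1 FPKM and a fixed set of central genes were named. The comparisons with short and intronless genes were added after the values were seen. Alternatives were the pseudocount, fold, low-value filter, scaling, shared copies and top genes. The scripts used scipy 1.17.1, pandas 2.3.3, numpy 2.4.6 and Python 3.11.15, with plots by matplotlib 3.10.9, and were tested on simulated data.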

Additional observations from a re-analysis of the deposited data

How the results depend on the processing

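No paired analysis was possible because each dose had 1 library. Across the settings tried, the median and every class ratio kept their direction. Of the 14 members at least 2-fold higher, the count became 35 with a pseudocount of 0.1, 4 with a pseudocount of 5, 5 with both libraries rescaled to equal sums, 20 with centring on the median gene, 7 among the 33 members with at most 50% shared words, 24 at 1.5-fold and 0 at 3-fold. The count of 1 lower became 7 with a pseudocount of 0.1 and 0 with a pseudocount of 5 or without shared copies. The median log2 ratio of 0.46 became 1.14 and 0.13 with those pseudocounts, 0.86 at a mean of at least 1 FPKM, 0.76 after centring on the median gene (-0.30) and 0.30 with equal sums (factor 0.771). The ratio of summed FPKM over all members became 2.90 with centring, 1.82 with equal sums and 2.19 without the top gene. For H2A it became 2.86, 1.79 and 2.08 in that order, and 2.01 without shared copies. For H2B it became 2.19 with centring, 1.37 with equal sums and 1.49 without shared copies, and for H3 1.97 with equal sums and 3.38 without shared copies. For H1 and H4 it stayed within the counting interval in every setting, and H4, at 3.15 without shared copies, was then below H3.

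Among single members, 44 of 47 stayed above 0 with equal sums, while H1f6, H2bc21 and H2bu2 turned above 0 with centring. Of the histone mRNA genes 4 were lower with a pseudocount of 5 and 11 with equal sums, in place of 7. Of the chaperones 1 was higher with a pseudocount of 5, 4 with centring and 0 with equal sums, in place of 2. Of the variants 1 was higher with a pseudocount of 0.1, 3 were higher with centring and 1 was lower with equal sums, in place of 0. Of the S-phase genes 1 was higher with a pseudocount of 5, 6 with centring and 0 with equal sums, in place of 2, and 0, 0 and 4 were lower, in place of 2. The choice of scaling thus decides how many single genes pass 2-fold. Depth limits most single members, of which 15 had 3 or fewer reads in both libraries.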
